A study of Sus scrofa with 45 samples.

Results

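The proteasome is the protease that breaks down most proteins a cell has tagged with ubiquitin. Its 20S core is a barrel of alpha and beta rings whose catalytic beta subunits cut the protein, and a 19S cap of ATPase and non-ATPase subunits binds the ubiquitin chain and unfolds the protein into the barrel. In cells exposed to interferon, and in many white blood cells at rest, the catalytic subunits PSMB8, PSMB9 and PSMB10 are built in place of the constitutive PSMB5, PSMB6 and PSMB7, and this immunoproteasome, often capped by the PA28 activator of PSME1 and PSME2, makes peptides that are loaded on MHC class I.

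Proteasome subunits were taken as the probes, control spots aside, whose gene name starts with PSMA, PSMB, PSMC, PSMD, PSME or PSMF or whose description holds the word proteasome. This gave 33 probes of 22 genes, among 43603 probes and 1829 genes with a symbol on the array. Male miniature pigs were fed a control diet, a diet rich in fat and cholesterol (HFCD) or such a diet with much sucrose added (HFCSD). Their RNA was read in 1 colour on 45 Agilent porcine arrays, from whole blood kept in PAXgene tubes after 10, 19 and 27 weeks of feeding and from white blood cells caught with the LeukoLock kit after 27 weeks. Each of the 12 groups of sample type, feeding period and diet had 4 arrays, apart from HFCSD in whole blood at 19 weeks and both diets in whole blood at 27 weeks, with 3 arrays each. The labels do not say whether the same number in 2 groups is the same pig, so p-values measure the spread between these samples only. By the methods the pigs of each diet were bled repeatedly, so groups of the same diet share pigs. Tests between feeding periods or sample types treat these repeated samples as independent. The number of arrays limits the precision of every value below.

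Levels are normalized log2 intensities, and a change is a difference of log2 group means. A spot was taken as present where the scanner's software marked it well above background, which held for 35.37% to 53.29% of the probe spots of an array. A change was called where the limma p-value, adjusted over all probes tested in that comparison, was under 0.05. A probe was tested in a comparison only if at least 1 of the groups had it present throughout. Medians over the subunits use only the 23 probes present on all 45 arrays, and stand beside the median of the 12094 probes of the whole array that meet the same rule.

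The members fell into 7 roles. The immunoproteasome had 5 probes of 3 genes (PSMB8, PSMB9 and PSMB10) and the PA28 activator 3 probes of 2 genes (PSME1 and PSME2). The constitutive catalytic subunits were represented by 1 probe, for PSMB7, and no probe was named for PSMB5 or PSMB6. Other 20S subunits had 7 probes of 5 genes (PSMA4, PSMA5, PSMA6, PSMB3 and PSMB4), 19S ATPases 1 probe (PSMC2) and 19S non-ATPase subunits 10 probes of 6 genes (PSMD1, PSMD4, PSMD8, PSMD11, PSMD12 and SEM1). Regulators and assembly factors had 6 probes of 4 genes. These are the assembly chaperones PSMD9 and PSMD10, the nuclear activator PSME3 and ECM29, which holds the 19S cap on the core. The PSMB3 probe and PSMD1 probe A_72_P412658 carry their names only from similarity over a short stretch.

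Most of the subunits could be read in every sample. Of the 33 probes, 23 probes of 17 genes were well above background on all 45 arrays, 5 on some arrays and 5 on none. The 5 probes read on none were those of PSMA5, 2 of PSMA6, PSMB4 probe A_72_P056476 and PSMD9 probe A_72_P250627, so PSMA5 and PSMA6 were below background by every probe they have. PSMD1 was near the limit, with probe A_72_P189146 well above background on 30 arrays and A_72_P412658 on 26. PSMD11 was read on 15 arrays, and PSMD4 probe A_72_P184286 and PSMD9 probe A_72_P020376 on 2 arrays each. The 20S core is thus followed here through PSMA4, PSMB3, PSMB4, PSMB7 and the immunoproteasome subunits.

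Of the immunoproteasome and PA28 genes, PSMB8 and PSMB9 adjoin genes that load MHC class I. In the RefSeq annotation of the pig genome PSMB8 lies between TAP2 and TAP1, and PSMB9 between TAP1 and BRD2, on chromosome 7. TAP1 and TAP2 form the pump that carries peptides to MHC class I. PSME2 lies between IRF9 and EMC9 and PSME1 between EMC9 and FITM1, also on chromosome 7. PSMB10 lies between CTRL and LCAT on chromosome 6, PSMB7 on chromosome 1 and PSMD4 on chromosome 4, away from these neighbours.

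Across the 12 groups, the immunoproteasome and PA28 probes were lowest in the older whole blood controls. On each array the median was taken of the deviations of these 8 probes from their own means over all arrays. At 10 weeks its group mean in whole blood was 0.15 on the control diet, 0.38 on HFCD and 0.13 on HFCSD. By 19 weeks it was -0.40 in control, 0.11 in HFCD and 0.16 in HFCSD, and at 27 weeks -0.58, -0.16 and -0.13 in the same order. In white blood cells it was -0.18 in control, 0.27 in HFCD and 0.24 in HFCSD. At every sample type and feeding period the control mean was thus below the HFCD mean, and at 10 weeks control and HFCSD did not differ beyond their spread (SD 0.153 in each group). The clearest separation was at 19 weeks, where the 4 controls lay from -0.54 to -0.34 and the 4 HFCD arrays from 0.06 to 0.17.

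The same median of the other 15 probes, which stand for the constitutive core, the 19S cap and the regulators, moved over a narrower range. In the order control, HFCD, HFCSD, its group means in whole blood were 0.059, 0.022 and -0.037 at 10 weeks and -0.31, -0.011 and 0.065 at 19 weeks. At 27 weeks they were -0.16, -0.17 and -0.12 in whole blood and 0.029, 0.26 and 0.18 in white blood cells. Here the whole blood controls of 19 weeks were lowest, from -0.50 to -0.18, and the 3 diets in whole blood at 27 weeks overlapped. Single probes of this set could move more than its median. PSMD4 probe A_72_P088046 had group means from 7.37 to 10.28, beside 7.63 to 9.32 for PSME2 probe A_72_P337518.

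**Figure D1:**
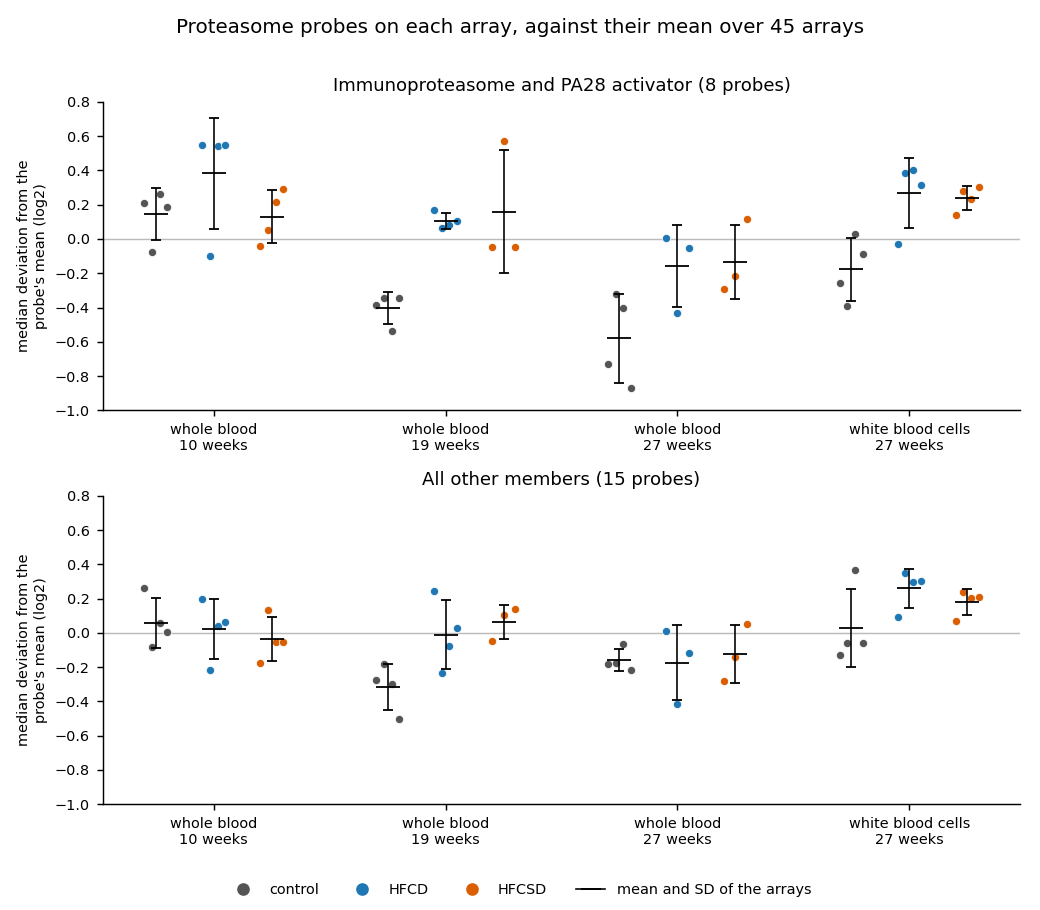
Median deviation of the immunoproteasome and PA28 probes (top) and of the other proteasome probes (bottom) from their own means over 45 arrays, in log2 units, with a point for each array and black bars for the mean and SD of the group. The top panel shows controls of 19 and 27 weeks in whole blood below 0.

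HFCD in whole blood at 10 weeks shows the subunits early in feeding. No subunit was called, and the immunoproteasome and PA28 probes leaned upward by little. Of 24 probes tested, limma called 0, where 0.0281% of all probes were called, and 1 had an unadjusted p under 0.05, beside 10.0% of all probes. PSMB9, the inducible counterpart of PSMB6, read 13.09, 12.58, 13.02 and 13.02 in the controls and 13.28, 12.62, 13.26 and 13.41 under HFCD. In either group replicate 2 was lowest, and the other 3 HFCD values lay above all controls. The 8 immunoproteasome and PA28 probes had a median change of 0.24, with all 8 above 0, and the other 15 probes 0.022. Over the 23 probes the median was 0.11, beside 0.087 for all probes, and ranged from 0.017 without HFCD replicate 1 to 0.24 without HFCD replicate 2.

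HFCSD at 10 weeks gave no call among the subunits. Limma called 0 of 23 probes, beside 0.0123% of all probes, and 0 had an unadjusted p under 0.05, beside 1.73%. The median change was -0.022, beside -0.0076 for all probes, with 10 of the 23 above 0. PSMB7, the constitutive trypsin-like subunit, had the values 9.30, 8.89, 9.49 and 9.30 in controls, 8.98, 8.76, 9.02 and 9.06 under HFCD and 8.72, 9.06, 8.85 and 9.04 under HFCSD. Control replicate 2 lay among the diet values and the other 3 controls above all of them, and the change of -0.33 under HFCSD was not called. Between HFCSD and HFCD limma called 0 of 24 probes, where 0% of all probes were called. There 0 subunits had an unadjusted p under 0.05, beside 4.95% of all probes. The median difference was -0.14, beside -0.10 for all probes.

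On the same slide, where a slide holds both groups, the median changes under HFCD at 10 weeks were 0.025, 0.16 and 0.21 on slides 1, 2 and 3. Those under HFCSD were -0.27, 0.30 and 0.037, and those of HFCSD against HFCD -0.38, 0.024 and -0.17. The sign of the HFCSD change therefore differed between slides.

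At 19 weeks the controls were the group that stood apart. Under HFCD most proteasome probes were higher than in the controls, including the constitutive PSMB7 and the ubiquitin receptor PSMD4 as well as PA28. None of these differences passed adjustment. Of 23 probes tested limma called 0, beside 0.0181% of all probes, while 7 had an unadjusted p under 0.05, all higher, as had 12.5% of all probes in either direction. The median change was 0.41, with 19 of 23 above 0, beside -0.018 for all probes.

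PSME2, the beta chain of the PA28 ring, read 11.64, 11.52, 11.08 and 11.14 in the 4 controls at 19 weeks with probe A_72_P146981. It read 12.43, 12.26, 12.02 and 12.002 under HFCD and 12.03, 12.71 and 11.998 under HFCSD. By this probe no diet array reached down to the controls. By A_72_P337518 they overlapped, with 7.98, 8.28, 7.84 and 7.74 in controls, 8.22, 8.50, 9.04 and 8.51 under HFCD and 8.79, 9.21 and 7.76 under HFCSD, and changes of 0.61 and 0.63 that were not called. For A_72_P146981 the log2 changes were 0.84 (standard error 0.240, limma adjusted p = 0.211, 4 of 4 arrays above all controls) under HFCD and 0.90 (standard error 0.261, limma adjusted p = 0.274, 3 of 3 arrays) under HFCSD. PSME1, the alpha chain, read 11.24, 11.21, 11.07 and 11.20 in controls, 11.89, 11.74, 11.83 and 11.86 under HFCD and 11.76, 12.29 and 11.55 under HFCSD. Its controls lay within a narrow band below all diet values, with changes of 0.65 and 0.69 that limma did not call. PSME3, a nuclear activator related to PA28, read 5.75, 6.11, 5.19 and 5.67 in controls, 6.72, 6.17, 6.45 and 6.36 under HFCD and 6.37, 6.40 and 6.79 under HFCSD, again with no overlap.

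The catalytic subunits were less separated. PSMB8, the chymotrypsin-like immunoproteasome subunit, read 10.66, 9.82, 9.96 and 9.81 in controls and 10.21, 10.90, 10.74 and 10.84 under HFCD. It read 10.38, 11.18 and 9.75 under HFCSD, so 1 value lay below all controls and 1 above all. PSMB7 read 8.42, 8.04, 7.58 and 7.77 in controls, 8.40, 8.33, 8.95 and 8.89 under HFCD and 8.75, 8.80 and 8.23 under HFCSD. Both the constitutive subunit and PSMB8 had control replicate 1 within the range of the diets. PSMB10, the trypsin-like immunoproteasome subunit, read 11.09, 11.14, 10.93 and 11.33 in controls, 11.36, 11.59, 11.64 and 11.96 under HFCD and 11.67, 12.20 and 11.40 under HFCSD with probe A_72_P024281. By this probe the groups did not overlap, but its other 2 probes had no such difference, with control values of 10.01, 10.61, 10.66 and 10.87 and HFCD values of 10.69, 10.27, 10.42 and 10.40 for A_72_P088096.

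Under HFCSD at 19 weeks limma called 0 of 23 probes, beside 0.0175% of all probes, and 6 had an unadjusted p under 0.05, all higher, beside 11.9% of all probes in either direction. All 23 probes present on every array had a change above 0, with a median of 0.48, beside 0.056 for all probes. HFCSD against HFCD gave 0 of 23 called, beside 0% of all probes, and 0 at an unadjusted p under 0.05, beside 1.56%. The median was 0.035, beside 0.083 for all probes. It was -0.031 to 0.16 leaving out 1 array and -0.017 under scaling to the 75th percentile, so its sign was not fixed. Both diets are compared with the same 4 controls, so a chance low value in these controls raises both changes.

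The controls of 19 weeks were split over 2 scan days. Replicate 1 was scanned on day 2 with the diet arrays, and replicates 2 to 4 on day 3. Within day 2, against replicate 1 alone, the median change was 0.40 under HFCD and 0.54 under HFCSD, close to the pooled values. For PSME1 the day 2 changes were 0.59 and 0.63, and for PSME2 probe A_72_P146981 they were 0.54 and 0.61. PSMD4 probe A_72_P088046 read 9.01 in replicate 1 and 7.78, 6.35 and 6.34 in replicates 2 to 4, against 7.88, 9.39, 9.64 and 9.77 under HFCD and 9.86, 8.73 and 7.95 under HFCSD. The pooled changes of 1.80 and 1.48 were 0.16 and -0.16 within day 2. These day 2 changes all rest on 1 control array, so feeding, scan day and that array cannot be told apart for any of these genes. On slide 4, which holds control replicate 1 and 1 HFCD array, the median change was 0.24, and HFCSD against HFCD gave -0.13, 0.003 and 0.24 on slides 8, 9 and 10.

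HFCD in whole blood at 27 weeks left every subunit uncalled. The 8 immunoproteasome and PA28 probes were all higher than control, by a median of 0.37, while the other 15 had a median of -0.027. Limma called 0 of 25 probes tested, beside 0.0165% of all probes, and 0 had an unadjusted p under 0.05, beside 5.54%. The median of all 23 was 0.14, beside -0.041 for all probes, and on slides 11 and 12 it was 0.066 and 0.14. Without HFCD replicate 1 it was 0.036, without HFCD replicate 2 it was 0.23, and scaling to the 75th percentile gave 0.022. PSMB9 read 12.33, 12.57, 12.29 and 12.09 in controls and 12.77, 12.55 and 12.73 under HFCD, with 1 HFCD value inside the control range.

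HFCSD in whole blood at 27 weeks was the only diet comparison in which subunits passed the test. PSMD4, the 19S subunit that captures ubiquitin chains, rose by 2 of its probes. PSMD10, also known as gankyrin, a chaperone that helps to build the 19S base, fell by 1 of its 2 probes. The catalytic subunits of either kind were not called. Of 24 probes tested limma called 3, which is 12.5%, where 10.6% of all probes were called, so the number of called subunits was near that of any probes. With the called probes counted, 6 had an unadjusted p under 0.05, 4 higher and 2 lower, where 32.3% of all probes had one.

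PSMD4 read 6.76, 7.67, 8.12 and 7.22 in the controls, 8.17, 8.26 and 7.75 under HFCD and 9.17, 9.59 and 9.01 under HFCSD with probe A_72_P088046. All HFCSD values lay above all others in whole blood of that feeding period, and HFCD lay between, with some overlap with the controls. The rise under HFCSD was 1.82 (standard error 0.319, limma adjusted p = 0.0186, 3 of 3 arrays above all controls). The call ended without control replicate 1 or without HFCSD replicate 1 or 2, with a change of 1.59 to 2.04 over all refits that left out 1 array. It also ended with the methods' t-test and with the covariate described below. Within slides 12 and 13 the change was 1.92 and 0.97.

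The other bright PSMD4 probes moved the same way. A_72_P186381 read 10.38, 10.99, 11.05 and 11.01 in controls, 11.11, 11.34 and 11.29 under HFCD and 11.90, 12.36 and 11.84 under HFCSD. Here too HFCSD was above every other whole blood array of the period. The change was 1.18 (standard error 0.235, limma adjusted p = 0.0225, 3 of 3 arrays above all controls), and 1.37 and 0.82 within slides 12 and 13. That call ended without control replicate 1, 2 or 3 or HFCSD replicate 1 or 2, with changes of 1.02 to 1.27. It ended with the t-test and the same covariate as well. A_72_P263002 read 12.97, 13.29, 12.97 and 13.42 in controls and 13.71, 13.93 and 13.65 under HFCSD, also without overlap, but its change of 0.61 (standard error 0.200, limma adjusted p = 0.0731, 3 of 3 arrays above all controls) was not called. The PSMD4 probes that were called are printed here because the rise rests on what these 60-base sequences bind.
PSMD4 A_72_P088046: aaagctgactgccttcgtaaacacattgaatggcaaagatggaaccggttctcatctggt
PSMD4 A_72_P186381: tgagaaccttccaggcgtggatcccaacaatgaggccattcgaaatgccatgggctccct

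PSMD10 fell where PSMD4 rose. Probe A_72_P217957 read 7.74, 7.75, 8.15 and 8.07 in controls, 7.55, 7.34 and 7.54 under HFCD and 6.82, 7.29 and 7.29 under HFCSD. The 3 groups lay in steps without overlap. The change under HFCSD was -0.79 (standard error 0.212, limma adjusted p = 0.0414, 3 of 3 arrays below all controls), and -0.46 and -1.10 within slides 12 and 13. The call ended without any 1 of the 4 controls and without HFCSD replicate 1 or 2, with changes of -0.87 to -0.64. It also ended with the replicate block (-0.75), the slide as a fixed block (-0.85), normexp (-0.60), no filter, the t-test and the covariate described below, and was kept in 4 of 10 settings. Probe A_72_P044106 of the same gene did not fall, with 5.69, 5.96, 6.96 and 6.24 in controls and 6.32, 6.27 and 6.48 under HFCSD, so the 2 probes disagree. PSMD12, a lid subunit, read 6.66, 5.89, 6.60 and 6.84 in controls and 4.93, 5.69 and 6.39 under HFCSD, and its change of -0.83 was not called. PSMC2, an ATPase of the 19S base, read 9.59, 9.34, 9.73 and 9.87 in controls and 9.31, 9.39 and 9.75 under HFCSD, which overlap. Its change of -0.15 and those of the core subunits PSMB3 at -0.27 and PSMA4 at -0.068 were not called.

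The immunoproteasome and PA28 probes had a median change of 0.40 under HFCSD at 27 weeks, with 8 of 8 above 0 and 0 called. PSMB8 read 9.71, 10.04, 10.04 and 9.51 in controls, 10.07, 10.09 and 10.44 under HFCD and 9.82, 10.47 and 10.27 under HFCSD. The diet values reached higher than the controls but overlapped with them under HFCSD. PSME2 probe A_72_P337518 read 7.29, 8.07, 8.29 and 6.86 in controls and 8.46, 8.38 and 8.73 under HFCSD, a change of 0.89 (standard error 0.346, limma adjusted p = 0.109, 3 of 3 arrays above all controls). It was above all controls on every HFCSD array without being called.

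Under HFCSD at 27 weeks the median change of all 23 probes was 0.14, where that of all probes was -0.22. Within slides 12 and 13 it was 0.047 and 0.062. The HFCSD arrays of that period had 38.82% to 39.66% of spots well above background, where the controls had 50.16%, 49.41%, 46.5% and 38.91%, so control replicate 4 lay within the range of HFCSD. With this share as a covariate, chosen with earlier results known, 0 subunits were called, while the changes of the 2 PSMD4 probes were 1.77 and 0.93 and that of PSMD10 was -0.93. The part of this share in the result was not tested. PSMD1 probe A_72_P189146 was well above background on 3 of 4 controls and on 0 HFCSD arrays, and was at least 1.29-fold higher in controls. It was not tested in this comparison. Such a bound divides the mean of the bright group by the mean of the dim group, after raising each dim value to the lowest signal that was well above background on its array. By PSMD1 probe A_72_P412658 the groups overlapped, with 4.37, 4.33, 4.01 and 4.64 in controls and 4.47, 4.33 and 4.12 under HFCSD. Without HFCSD replicate 3 the number of called subunits was 4, without control replicate 1 or HFCSD replicate 1 or 2 it was 0, and without control replicate 2 or 3 it was 1.

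HFCSD against HFCD at 27 weeks gave 0 of 25 probes called by limma, beside 0.0111% of all probes, and 3 with an unadjusted p under 0.05, beside 12.5% of all probes. These were 2 probes of PSMD4, higher by 1.20 and 0.79, and PSMD1 probe A_72_P189146, which was at least 1.33-fold higher under HFCD and was tested only because the HFCD arrays had it present. PSMD1 probe A_72_P412658 was not higher under HFCD, with 3.845, 4.39 and 3.85 there and 4.47, 4.33 and 4.12 under HFCSD. The median was 0.10, beside -0.16 for all probes, and -0.082 on slide 12. It was -0.069 without HFCD replicate 2, -0.025 without HFCSD replicate 3 and 0.19 without HFCD replicate 1, so its sign changed with the arrays used.

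**Figure D2:**
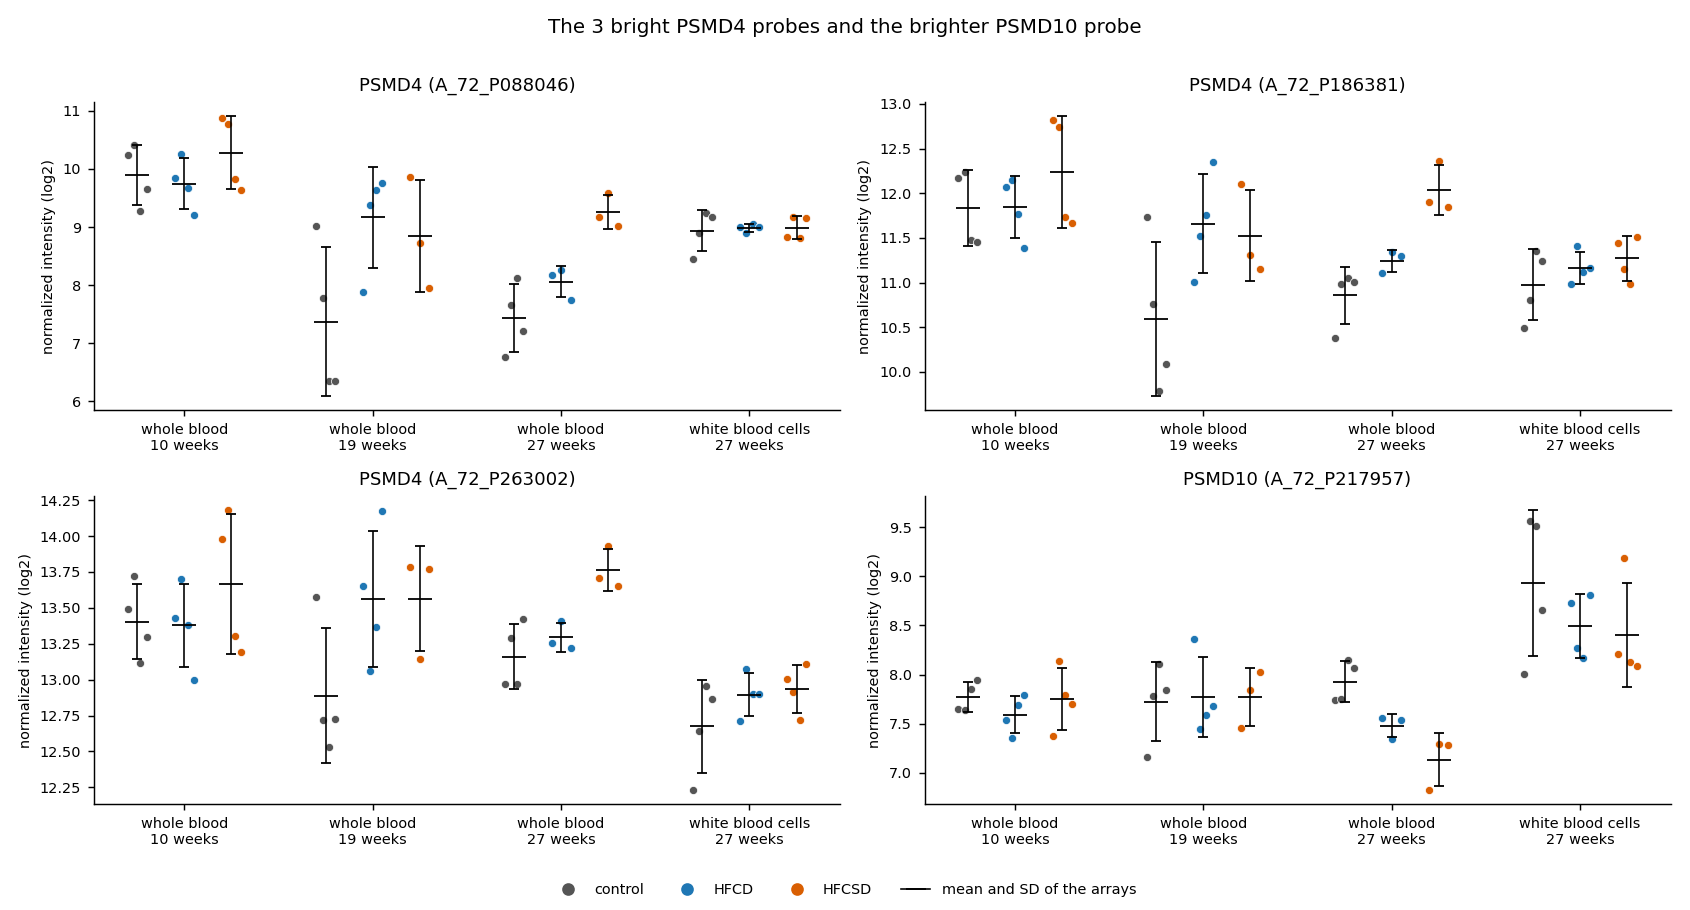
Normalized log2 intensity of 3 PSMD4 probes and of PSMD10 probe A_72_P217957 on each array, with black bars for the mean and SD of the group. PSMD4 probe A_72_P088046 ranges from 6.34 to 10.87, and its HFCSD arrays in whole blood at 27 weeks, from 9.01 to 9.59, lie above the controls of that period.

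In white blood cells at 27 weeks each of the 8 immunoproteasome and PA28 probes had a change above 0 under either diet, and 0 were called. PA28 and PSMB10 were higher on nearly every diet array, and no probe passed adjustment. Under HFCSD the largest change was that of SEM1 in the 19S cap, at 0.70 (standard error 0.262, limma adjusted p = 0.366, 3 of 4 arrays above all controls). Under HFCD limma called 0 of 24, beside 0.0276% of all probes, and 7 had an unadjusted p under 0.05, all of them among the 8 immunoproteasome and PA28 probes, beside 4.72% of all probes. Under HFCSD it called 0 of 24, beside 0.0366%, with 7 at an unadjusted p under 0.05, of which 6 were among the same 8, beside 11.4% of all probes.

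PSME2 read 11.99, 11.85, 12.13 and 11.83 in control white blood cells, 12.49, 12.75, 12.70 and 12.45 under HFCD and 12.11, 12.84, 12.58 and 12.61 under HFCSD with probe A_72_P146981. Only HFCSD replicate 1 overlapped with the controls. The changes were 0.65 (standard error 0.178, limma adjusted p = 0.849, 4 of 4 arrays above all controls) and 0.58 (standard error 0.179, limma adjusted p = 0.322, 3 of 4 arrays). PSME1 read 11.44, 11.69, 11.81 and 11.75 in controls, 12.003, 12.12, 12.16 and 12.08 under HFCD and 11.92, 12.19, 12.28 and 12.17 under HFCSD. No PSME1 value of either diet reached down to the controls.

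All 3 probes of PSMB10 were higher under both diets. A_72_P024281 read 10.60, 10.72, 11.18 and 11.25 in controls, 11.16, 11.42, 11.73 and 11.69 under HFCD and 11.38, 11.41, 11.50 and 11.71 under HFCSD. Only HFCD replicate 1 lay within the control range. Its changes were 0.56 under either diet, those of A_72_P088096 were 0.41 and 0.40, and those of A_72_P003971 were 0.48 and 0.47. The last 2 probes share a run of 50 bases and are no independent measures. The sequence of A_72_P024281, which shares no run longer than 6 bases with them, is given since it is the separate measure of this gene.
PSMB10 A_72_P024281: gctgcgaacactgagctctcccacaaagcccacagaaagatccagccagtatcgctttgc

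PSMB9 and PSMB8 had wider groups. PSMB9 read 12.53, 12.25, 12.59 and 12.24 in controls, 12.53, 13.24, 13.14 and 12.67 under HFCD and 12.30, 13.04, 12.90 and 12.94 under HFCSD. Replicate 1 of each diet fell within the controls and the rest lay above. PSMB8 read 10.44, 10.07, 10.71 and 10.39 in controls, 10.35, 10.95, 11.30 and 10.85 under HFCD and 10.42, 10.71, 10.75 and 10.86 under HFCSD, and the groups overlapped. The constitutive PSMB7 read 8.56, 8.62, 9.18 and 8.63 in controls and 8.90, 9.38, 9.16 and 9.07 under HFCD, with control replicate 3 among the diet values.

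The median change of the 8 immunoproteasome and PA28 probes in white blood cells was 0.47 under either diet, with 8 of 8 above 0, and that of the other 15 was 0.21 under HFCD and 0.070 under HFCSD. Over the 23 probes it was 0.31 and 0.30, beside 0.030 and 0.028 for all probes. Both diets share their controls, and the measures of 1 control array enter every change. Within slides 14, 15 and 16 the medians were 0.44, 0.26 and 0.19 under HFCD and 0.48, 0.50 and 0.027 under HFCSD. HFCSD against HFCD gave 0 of 24 called by limma, beside 0% of all probes, and 0 with an unadjusted p under 0.05, beside 2.17%. The median difference was -0.027, beside -0.0024 for all probes. Within the same slides that difference was 0.013, 0.076 and -0.15. For each diet comparison in which limma called 0 subunits, the methods' t-test with the same adjustment gave 0 as well.

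**Figure D3:**
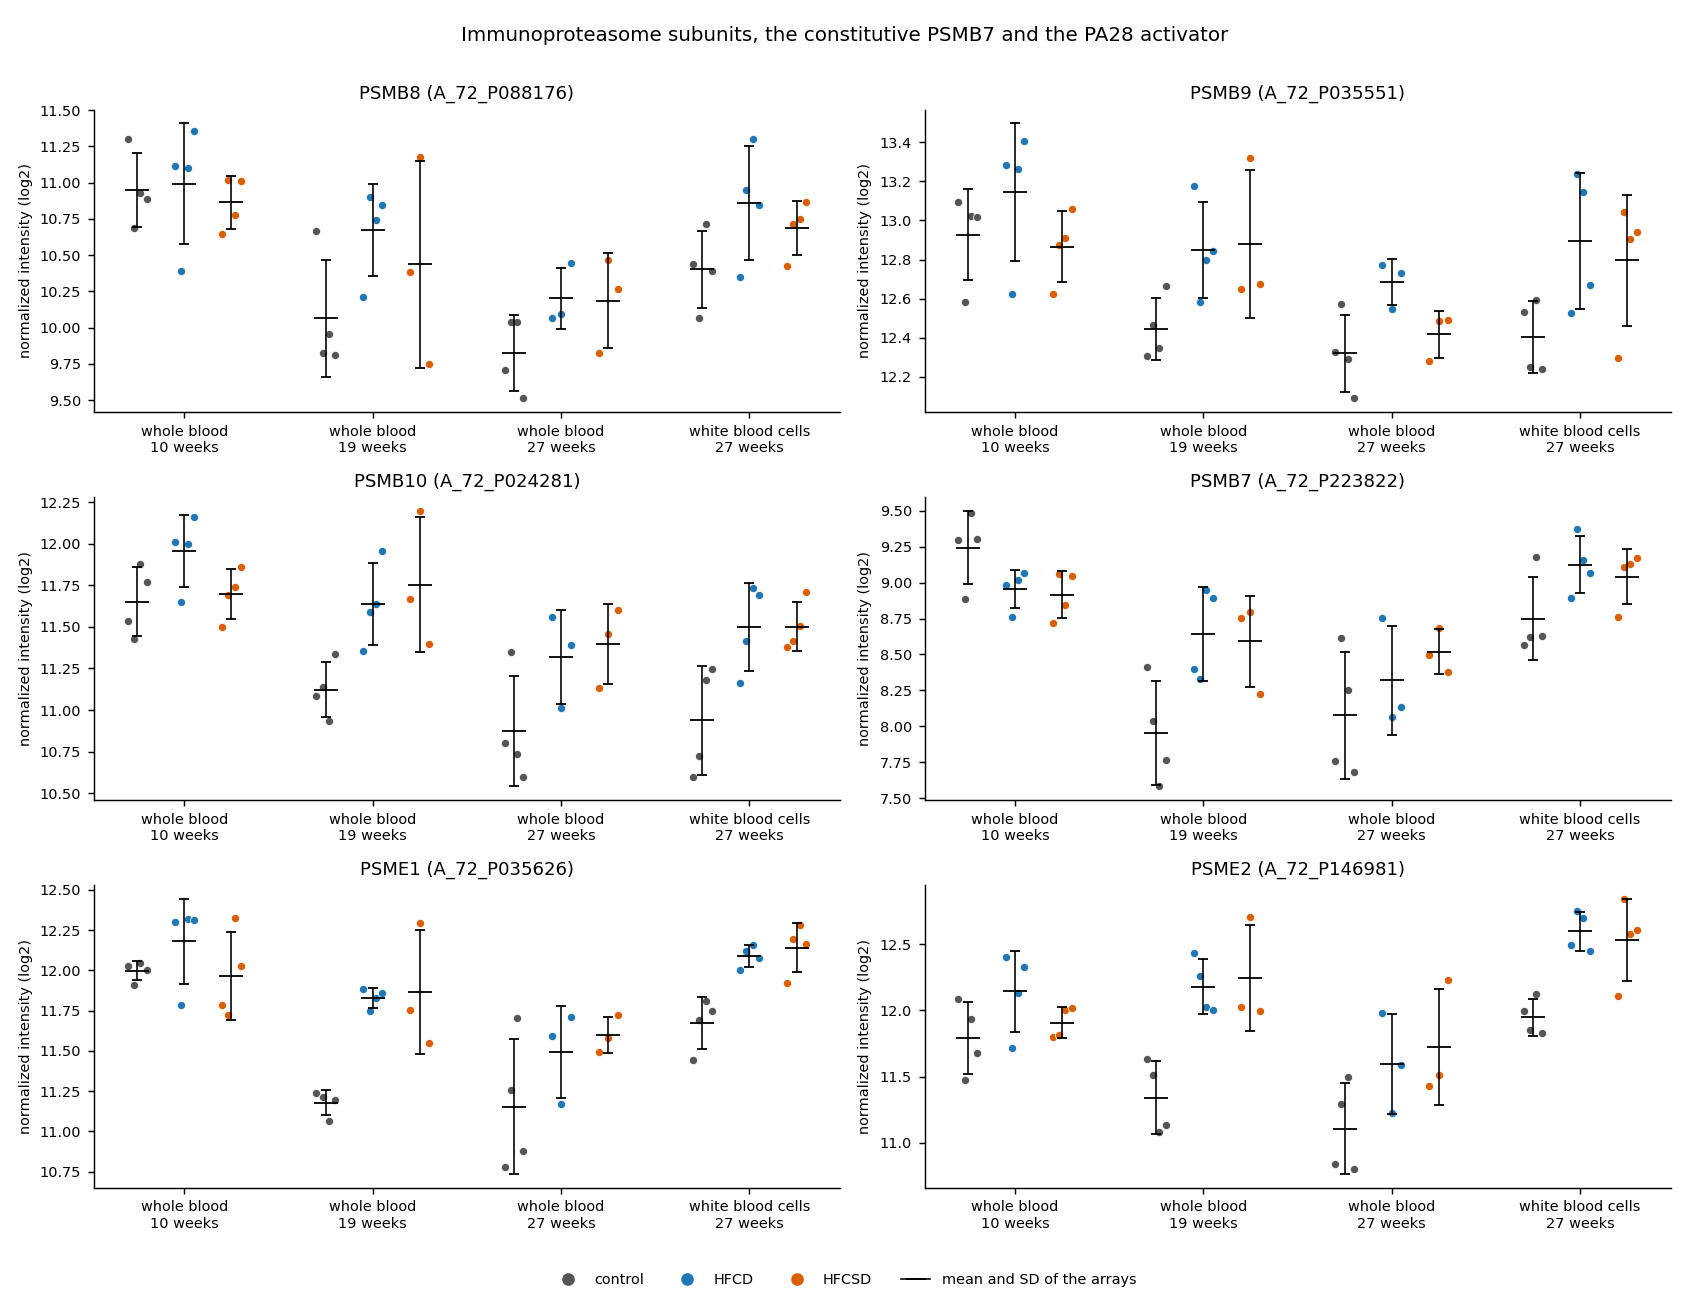
Normalized log2 intensity of PSMB8, PSMB9, PSMB10 (A_72_P024281), PSMB7, PSME1 and PSME2 (A_72_P146981) on each array, with black bars for the mean and SD of the group. PSME1 has no diet array within the range of its controls at 19 weeks in whole blood or in white blood cells.

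Against whole blood of the same diet, PA28, PSME3 and PSMD10 were higher in white blood cells, and PSMD4 depended on the probe. The sample types were extracted with different kits and scanned on different days, so cells, kit and day cannot be told apart. In controls limma called 10 of 25 probes, 9 higher and 1 lower, which is 40% where 45.3% of all probes were called. Under HFCD it called 11 of 25, all higher (44%, beside 47.5%), and under HFCSD 9 higher and 2 lower of 24 (45.83%, beside 58.9%). These shares are near or below those of any probes. Adding the share of present spots to the HFCSD fit as a covariate left 2 calls, PSMA4 and PSMD12, so the other HFCSD calls below ended with it.

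Medians of the 23 probes were 0.32, 0.34 and 0.38 in control, HFCD and HFCSD, where all probes had 0.073, 0.15 and 0.29. Scaling to the 75th percentile moved the medians of all probes to 0.26, 0.40 and 0.47 and those of the subunits to 0.55, 0.71 and 0.56. Without that scaling the subunits exceeded all probes by 0.25, 0.19 and 0.092.

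Both PSME2 probes rose in white blood cells of all 3 diets. In controls A_72_P146981 read 10.84, 11.29, 11.50 and 10.80 in whole blood, all below the white blood cell values given above. Its changes were 0.84 in control (limma adjusted p = 0.00486, 4 of 4 arrays above all whole blood), 1.00 in HFCD (limma adjusted p = 0.00247, 4 of 4 arrays) and 0.81 in HFCSD (limma adjusted p = 0.00807, 3 of 4 arrays). The HFCSD call ended without whole blood replicate 1, with changes of 0.66 to 1.06 over the refits. A_72_P337518 changed by 1.18, 1.12 and 0.80 (limma adjusted p = 0.00109, 0.00302 and 0.0197, 4 of 4 arrays in each), and its HFCSD call ended without whole blood replicate 1 or 2 or white blood cell replicate 2 (0.72 to 0.94).

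PSME1 read 10.78, 11.25, 11.70 and 10.88 in control whole blood, and 2 of the 4 white blood cell controls lay above all of these. It rose by 0.52, 0.60 and 0.54 in control, HFCD and HFCSD (limma adjusted p = 0.0313, 0.0221 and 0.0292, with 2, 4 and 4 of 4 arrays above all whole blood). The control call ended without whole blood replicate 1 or 4 or white blood cell replicate 2, 3 or 4 (0.40 to 0.70). The HFCD call ended without whole blood replicate 2 (0.44 to 0.71), and the HFCSD call without whole blood replicate 1 or 2 or white blood cell replicate 2, 3 or 4 (0.49 to 0.62).

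Among the catalytic subunits, PSMB8 and PSMB7 were called in control and HFCD. In HFCSD they changed by 0.50 and 0.52 without being called (limma adjusted p = 0.0717 and 0.0684, 3 and 4 of 4 arrays above all whole blood), and scaling to the 75th percentile called both at 0.84 and 0.87. PSMB8 rose by 0.58 in control (limma adjusted p = 0.0352, 4 of 4 arrays above all whole blood) and by 0.66 in HFCD (limma adjusted p = 0.026, 3 of 4 arrays). The control call ended without replicate 1 or 4 of whole blood or 1, 3 or 4 of white blood cells (0.47 to 0.69), and the HFCD call without replicate 1 or 2 of whole blood or 2 or 3 of white blood cells (0.51 to 0.83). PSMB7, which read 7.76, 8.61, 8.25 and 7.68 in control whole blood, rose by 0.67 in control (limma adjusted p = 0.0188, 3 of 4 arrays above all whole blood) and 0.81 in HFCD (limma adjusted p = 0.00997, 4 of 4 arrays). Those calls ended without control replicate 1 or 4 of whole blood or 3 of white blood cells (0.53 to 0.85), or HFCD replicate 2 of whole blood (0.68 to 1.02). No probe of PSMB9 or PSMB10 was called, but that scaling called PSMB9 (0.58) and PSMB10 probes A_72_P024281 (0.62) and A_72_P088096 (0.65) in HFCD, and A_72_P088096 (0.50) in HFCSD. Whether the immunoproteasome and constitutive subunits differ in this was not tested.

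Of the regulators PSME3 and PSMD10 probe A_72_P217957 rose in all 3 diets, and ECM29 was called in none. PSME3 read 5.83, 6.26, 6.36 and 5.88 in control whole blood and 6.64, 6.77, 7.10 and 6.69 in control white blood cells, without overlap. It rose by 0.72, 1.03 and 0.73 in control, HFCD and HFCSD (limma adjusted p = 0.00424, 0.00047 and 0.00514, 4 of 4 arrays above all whole blood in each), with no call ended by leaving out 1 array. The HFCSD call ended with the share of spots as a covariate. PSMD10 probe A_72_P217957 read 8.01, 9.56, 9.51 and 8.66 in control white blood cells, where replicate 1 alone lay within the whole blood range. Its changes were 1.01, 1.02 and 1.27 (limma adjusted p = 0.0116, 0.0168 and 0.00313, with 3, 4 and 4 of 4 arrays above all whole blood). The control call ended without white blood cell replicate 2 or 3 (0.80 to 1.32) and the HFCD call without whole blood replicate 2 (0.91 to 1.13). A_72_P044106 rose by 1.44 in control and 1.40 in HFCD (limma adjusted p = 0.00106 and 0.00256, 3 of 4 and 4 of 4 arrays).

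PSMD4 went in both directions. Probe A_72_P088046 read 8.45, 8.89, 9.24 and 9.18 in control white blood cells, all above whole blood, a rise of 1.50 (standard error 0.247, limma adjusted p = 7.9e-05, 4 of 4 arrays above all whole blood). Under HFCD it rose by 0.92 (limma adjusted p = 0.00825, 4 of 4 arrays), a call that ended without whole blood replicate 3 (0.77 to 1.03), and under HFCSD it was not called. Probe A_72_P263002 fell by 0.49 in control (limma adjusted p = 0.0301, 4 of 4 arrays below all whole blood) and by 0.83 in HFCSD (limma adjusted p = 0.00116, 4 of 4 arrays below). The control call ended without whole blood replicate 2 or 4 or white blood cell replicate 1 or 2 (-0.58 to -0.34), with the t-test, and with scaling to the 75th percentile, which gave -0.21. Probe A_72_P186381 fell by 0.76 in HFCSD (limma adjusted p = 0.00857, 4 of 4 arrays below), which ended without whole blood replicate 2 (-0.86 to -0.60) and with that scaling, at -0.58. In HFCD A_72_P186381 changed by -0.078 and A_72_P263002 by -0.40, not called by limma but the latter called by the t-test. Probes of 1 gene thus differ in sign in control and HFCD, and no single change between sample types can be given for PSMD4.

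In the rest of the 19S cap and the core, PSMA4, PSMD12, a PSMD1 probe and 1 further core probe were called under a diet and not in control. PSMA4, an alpha ring subunit, read 9.09, 8.49 and 8.89 in HFCD whole blood and 9.24, 9.91, 9.60 and 9.31 in HFCD white blood cells. It rose by 0.69 in HFCD and 0.71 in HFCSD (limma adjusted p = 0.0101 and 0.00674, 4 of 4 arrays above all whole blood in each), and the HFCD call ended without whole blood replicate 2 (0.53 to 0.82). PSMD12 rose by 0.98 in HFCD and 1.47 in HFCSD (limma adjusted p = 0.0212 and 0.00103, 4 of 4 arrays in each), the HFCD call ending without replicate 2 of whole blood or of white blood cells (0.81 to 1.14). PSMD1 probe A_72_P189146, a large scaffold subunit of the cap, was well above background on 0 HFCSD arrays of whole blood and read 5.01, 5.29, 5.41 and 4.997 in white blood cells, at least 1.84-fold higher on 4 of 4 arrays. It is 1 of the 11 HFCSD calls, was tested only because the white blood cells had it present, and is not called when presence on every array compared is required. The other PSMD1 probe, A_72_P412658, went the opposite way. Under HFCSD it read 4.47, 4.33 and 4.12 in whole blood and 2.72, 3.595, 3.64 and 2.19 in white blood cells. Without the filter it was called there, at -1.27 (limma adjusted p = 0.00883). In control it was called without whole blood replicate 3 (-0.89) or white blood cell replicate 4 (-0.96). The 2 probes of PSMD1 thus disagree. In control PSMA4 changed by 0.36 and PSMD12 by 0.57, and they were called there with scaling to the 75th percentile and with normexp respectively. For HFCD the difference from the control change was called for 0 probes. For HFCSD it was called for 1 of 25, PSMD4 probe A_72_P088046, which is not among the probes named here. Without whole blood replicate 2 the HFCD count fell from 11 to 5, and without whole blood replicate 1 the HFCSD count fell from 11 to 7.

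Between 10 and 27 weeks in whole blood, limma called 3 of 5 immunoproteasome probes, 3 of 3 PA28 probes and the constitutive PSMB7 lower in controls. ECM29 rose. PSMA4, the only alpha ring gene read above background, and PSMC2, the only 19S ATPase with a probe, were not called. The 2 feeding periods were scanned on different days, so age, feeding time and scan day cannot be told apart. In controls limma called 12 of 24 probes, 1 higher and 11 lower, which is 50% where 20.7% of all probes were called. The methods' t-test called 4 of these, PSMB8, PSMB7, ECM29 and PSMD4 probe A_72_P088046. With the slide as a random block 9 were called, without PSME2 probe A_72_P146981, PSMD4 probe A_72_P186381 and PSME3. The median change was -0.56, beside 0.084 for all probes, and became -0.26 with normexp and -0.24 without the filter.

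PSMB8 read 11.30, 10.69, 10.93 and 10.89 at 10 weeks and 9.71, 10.04, 10.04 and 9.51 at 27 weeks in controls. All late values lay below all early ones. It fell by 1.13 (standard error 0.258, limma adjusted p = 0.00302, 4 of 4 arrays below all of 10 weeks). PSMB9 fell by 0.61 (standard error 0.184, limma adjusted p = 0.0204, 4 of 4 arrays below all of 10 weeks), a call that ended without replicate 3 or 4 of 10 weeks or replicate 4 of 27 weeks (-0.72 to -0.53). The catalytic pair encoded beside TAP1 thus fell together.

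PSMB10 depended on the probe. A_72_P024281 read 11.54, 11.43, 11.88 and 11.77 at 10 weeks and 10.80, 11.35, 10.74 and 10.60 at 27 weeks, and fell by 0.78 (standard error 0.193, limma adjusted p = 0.00541, 4 of 4 arrays below all of 10 weeks). The 2 probes with a shared run did not fall, with changes of 0.12 and 0.20. They share no run longer than 6 bases with A_72_P024281, and where on the transcript each probe binds was not looked up.

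The activator fell by all 3 probes. PSME1 read 12.03, 11.91, 12.04 and 12.004 at 10 weeks and 10.78, 11.25, 11.70 and 10.88 at 27 weeks, and fell by 0.84 (standard error 0.190, limma adjusted p = 0.00266, 4 of 4 arrays below all of 10 weeks). The early values were close together and the late ones spread over almost 1 log2 unit. PSME2 fell by 0.69 with A_72_P146981 (limma adjusted p = 0.0302, 3 of 4 arrays below all of 10 weeks) and by 1.26 with A_72_P337518 (limma adjusted p = 0.00202, 4 of 4 arrays). The call of A_72_P146981 ended without replicate 1 or 3 of 10 weeks or 1 or 4 of 27 weeks (-0.82 to -0.59). It also ended with normexp, without the filter, with the t-test and with the slide as a random block.

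The constitutive catalytic subunit fell as well. PSMB7 read 9.30, 8.89, 9.49 and 9.30 at 10 weeks and 7.76, 8.61, 8.25 and 7.68 at 27 weeks, and fell by 1.17 (standard error 0.220, limma adjusted p = 0.000545, 4 of 4 arrays below all of 10 weeks). No array of 27 weeks reached the early range. The fall was therefore not limited to the immunoproteasome.

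In the 19S cap the largest fall was that of 1 PSMD4 probe. Probe A_72_P088046 read 10.23, 10.41, 9.28 and 9.66 at 10 weeks and 6.76, 7.67, 8.12 and 7.22 at 27 weeks, and fell by 2.45 (standard error 0.496, limma adjusted p = 0.00108, 4 of 4 arrays below all of 10 weeks). A_72_P186381 fell by 0.98 (standard error 0.351, limma adjusted p = 0.0483, 4 of 4 arrays below all of 10 weeks), a call that ended without any 1 of the 8 arrays (-1.10 to -0.82). The early and late groups were far apart for the former and close for the latter. The brightest PSMD4 probe, A_72_P263002, was not called. It read 13.49, 13.72, 13.11 and 13.29 at 10 weeks and 12.97, 13.29, 12.97 and 13.42 at 27 weeks, which overlap. SEM1, a small acidic subunit of the lid, read 8.41, 7.53, 8.65 and 8.52 and then 6.87, 7.59, 7.71 and 6.70, and fell by 1.06 (standard error 0.275, limma adjusted p = 0.00753, 2 of 4 arrays below all of 10 weeks).

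Among the regulators, PSME3 and ECM29 went opposite ways. PSME3 read 6.84, 6.53, 6.85 and 6.48 at 10 weeks and 5.83, 6.26, 6.36 and 5.88 at 27 weeks, and fell by 0.59 (standard error 0.198, limma adjusted p = 0.0339, 4 of 4 arrays below all of 10 weeks). That call ended without replicate 1 or 3 of 10 weeks or 1 or 4 of 27 weeks (-0.69 to -0.51). It also ended without the filter, with the t-test and with the slide as a random block. ECM29 read 6.96, 7.03, 6.96 and 6.81 at 10 weeks and 7.96, 8.52, 8.44 and 7.56 at 27 weeks, and rose by 1.18 (standard error 0.234, limma adjusted p = 0.00089, 4 of 4 arrays above all of 10 weeks). Every late value was above the tight early group.

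The diet groups gave fewer calls over time than the controls. Not all signs were shared, since PSMD12 changed by 0.53 in control, 0.23 in HFCD and -0.18 in HFCSD, and PSMD10 probe A_72_P217957 by 0.16, -0.11 and -0.62, none of them called. In HFCD limma called 4 of 26 probes, all lower, which is 15.38% where 5.59% of all probes were called, with a median of -0.46, beside -0.014. These were PSME1 at -0.69, PSME2 probe A_72_P337518 at -0.99, SEM1 at -1.03 and PSME3 at -0.71 (limma adjusted p = 0.0471, 0.0469, 0.0384 and 0.0498, with 3 of 3 arrays below all of 10 weeks for each). All 4 calls ended with the slide as a random block, without the filter and with the t-test. Those of PSME1 and PSME3 also ended with the replicate block. All 4 ended as well without replicate 1, 3 or 4 of 10 weeks or replicate 2 or 3 of 27 weeks, and 5 probes were called without replicate 2 of 10 weeks. Without replicate 2 of 27 weeks ECM29 was called in their place, higher by 1.04. Without replicate 1 of 27 weeks the calls of PSME1 and SEM1 ended and the other 2 were kept. SEM1 in HFCD read 8.66, 7.87, 8.52 and 8.50 at 10 weeks and 7.56, 6.81 and 7.69 at 27 weeks, with no overlap and little room between the groups.

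In HFCSD limma called 1 of 23 probes, ECM29, which is 4.348% where 10.4% of all probes were called. ECM29 read 7.27, 7.66, 7.11 and 6.70 at 10 weeks and 8.25, 8.27 and 8.03 at 27 weeks, and rose by 1.00 (standard error 0.252, limma adjusted p = 0.0129, 3 of 3 arrays above all of 10 weeks). The call ended without replicate 4 of 10 weeks or replicate 1 of 27 weeks (0.84 to 1.16), and without replicate 2 of 27 weeks 2 probes were called. The median change was -0.18, beside -0.085 for all probes. PSMB8 read 10.65, 11.02, 10.77 and 11.01 and then 9.82, 10.47 and 10.27, again lower on every late array, without being called.

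Whether a diet acted differently in the 2 sample types was asked of the difference between its changes. For HFCD, white blood cells minus whole blood, limma called 0 of 25 probes, beside 0% of all probes, with 0 at an unadjusted p under 0.05 (1.34% of all probes) and a median of 0.13, beside 0.071. For HFCSD it called 1 of 25, which is 4% where 1.38% of all probes were called, with a median of 0.039, beside 0.26. That probe was PSMD4 A_72_P088046, with a difference of -1.77 (standard error 0.366, limma adjusted p = 0.0268, all 3 HFCSD arrays above the controls in whole blood). In white blood cells it read 8.45, 8.89, 9.24 and 9.18 in controls and 8.83, 9.16, 8.82 and 9.15 under HFCSD, which overlap, so the rise in whole blood had no counterpart there. The call ended without whole blood control replicate 1, whole blood HFCSD replicate 1 or 2, white blood cell control replicate 4 or white blood cell HFCSD replicate 1 or 3 (-1.99 to -1.54).

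Whether a diet acted differently at 27 and 10 weeks was asked in the same way. For HFCD limma called 0 of 26 probes, beside 0% of all probes, with 0 at an unadjusted p under 0.05, beside 2.72%. The median was 0.032, beside -0.15 for all probes. Leaving out 1 array gave -0.12 to 0.10 and the slide as a random block -0.10, so its sign was not fixed. For HFCSD limma called 0 of 24, beside 0% of all probes, with 3 at an unadjusted p under 0.05, 2 higher and 1 lower, beside 14.9% of all probes, and a median of 0.21, beside -0.22. PSMB7 was among them, with a difference of 0.77, and PSMD10 probe A_72_P217957 with -0.77.

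Other genes of the ubiquitin pathway gave few calls under the diets. Of the 39 genes listed for ubiquitin, its enzymes and shuttle factors, 11 had a probe. Under HFCSD in whole blood at 27 weeks 1 of 14 probes was called, UBE2D2, an E2 enzyme, which fell by 0.87 (standard error 0.243, limma adjusted p = 0.0469), where 10.6% of all probes were called. There 6 probes were higher and 1 lower at an unadjusted p under 0.05, with a median of 0.43 over the list, beside 32.3% of all probes at such a p. In the other diet comparisons 0 of 13 or 14 were called. At an unadjusted p under 0.05, 5 of 14 were lower and 0 higher under HFCD at 10 weeks, with a median of -0.22. Of all probes 10.0% had such a p there. Between sample types 6 rose and 2 fell of 14 in control, 4 and 2 in HFCD and 4 and 4 in HFCSD, where 45.3%, 47.5% and 58.9% of all probes were called. From 10 to 27 weeks, with 20.7%, 5.59% and 10.4% of all probes called, 1 rose and 3 fell in control, and 1 rose and 0 fell in either diet, which was UBE2D1, at 1.95 in control, 1.55 in HFCD and 1.79 in HFCSD.

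Genes that load peptides on MHC class I, the step after the immunoproteasome, were listed as 12, of which 7 had a probe. Under HFCSD in whole blood at 27 weeks 1 of 19 probes was called, for TAP2, higher by 2.83 (limma adjusted p = 0.0433, beside 10.6% of all probes called), and in the other diet comparisons 0 were. From 10 to 27 weeks 10 of 20 fell in control, 6 in HFCD and 7 in HFCSD, where 20.7%, 5.59% and 10.4% of all probes were called, with TAP1 at -3.66, -2.67 and -3.16. Between sample types 10 rose and 5 fell of 20 in control, 9 and 3 in HFCD and 11 and 3 in HFCSD, beside 45.3%, 47.5% and 58.9% of all probes called. Of the 5 immunoproteasome probes 3 were called lower in control and 0 in HFCD and HFCSD. Under these diets 3 and 2 were lower and 0 and 1 higher at an unadjusted p under 0.05. Of all probes 20.5% and 26.8% had such a p. Limma called 0 subunits for the difference of either diet from control over time.

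Interferon-induced genes, of which 15 of 23 listed had a probe, had positive median changes in each comparison of a diet with control. Under HFCD 21 of 32 probes at 10 weeks, 17 of 33 at 19 weeks and 19 of 32 at 27 weeks had an unadjusted p under 0.05, all higher, and 15 of 33 in white blood cells. Of all probes 10.0%, 12.5%, 5.54% and 4.72% had such a p in these comparisons. The medians were 0.86, 0.74, 0.96 and 0.90, and limma called 0. Under HFCSD the medians were 0.23, 0.53, 0.56 and 0.55, with 3 of 31 called at 27 weeks in whole blood, among them IRF7 at 2.14 (limma adjusted p = 0.0310), where 10.6% of all probes were called. At an unadjusted p under 0.05, 2 of 30, 10 of 32, 9 of 31 and 9 of 33 were higher under HFCSD. In white blood cells 1 was lower. Of all probes 1.73%, 11.9%, 32.3% and 11.4% had such a p. From 10 to 27 weeks 1 rose and 5 fell of 29 in control, 0 and 2 of 33 in HFCD and 2 and 1 of 32 in HFCSD (20.7%, 5.59% and 10.4% of all probes), with IRF9 at -2.28, -2.05 and -1.77. The medians of the list over time were above 0, at 0.15, 0.40 and 0.30. At an unadjusted p under 0.05, 6 were higher and 5 lower in control, 2 and 4 in HFCD and 3 and 2 in HFCSD. Of all probes 35.5%, 20.5% and 26.8% had such a p. Between sample types 6 rose of 31 in control, 5 of 33 in HFCD, and 7 rose and 2 fell of 33 in HFCSD, below the 45.3%, 47.5% and 58.9% of all probes.

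The summed intensity of the interferon list in white blood cells was 202400, 67190, 86730 and 47660 in controls and 127400, 225600, 169200 and 154600 under HFCD. Control replicate 1 was as high as the diet arrays. Under HFCSD it was 93600, 133200, 160900 and 134300. The brightest gene of the list was MX1, and no gene of it was below background on all arrays. Whether interferon had a part in the level of PSMB8, PSMB9, PSMB10 or PA28 was not tested.

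Marker genes of T cells were called over time and between sample types. Of 9 genes listed 7 had a probe, the brightest being CD3D. Between sample types 9 of 12 probes rose in control, 6 of 12 in HFCD and 10 of 13 in HFCSD, where 45.3%, 47.5% and 58.9% of all probes were called. From 10 to 27 weeks 5 of 11 fell in control, 3 of 12 in HFCD and 2 of 11 in HFCSD, where 20.7%, 5.59% and 10.4% of all probes were called. In the diet comparisons limma called 0, but at 19 weeks 6 of 11 had an unadjusted p under 0.05 under either diet, all higher, with medians of 0.66 and 0.75, beside 12.5% and 11.9% of all probes at such a p. In the same 2 comparisons 7 and 6 subunit probes had such a p. Their summed intensity in controls was 9787, 7167, 9360 and 7982 at 10 weeks, 7181, 7352, 8801 and 7249 at 27 weeks, and 12080, 11500, 13200 and 7495 in white blood cells. In HFCD it was 11110, 7749, 8925 and 9256 at 10 weeks, 8211, 5327 and 8278 at 27 weeks and 12820, 16060, 9866 and 9012 in white blood cells. In HFCSD it was 9040, 6517, 9762 and 8720, then 5543, 6288 and 8048, and 11420, 15740, 11660 and 12580 in white blood cells. At 19 weeks it was 6523, 7646, 6858 and 7980 in controls, 14850, 6613, 7390 and 8657 under HFCD, where replicate 1 stood far above the rest, and 8292, 10590 and 9588 under HFCSD. Fewer cells of a type and less RNA per cell cannot be told apart in these samples, and the part of T cells in the subunit levels was not tested.

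Other blood cell markers gave fewer calls, the NK list from only 2 probes. NK cell genes had 2 of 7 on the array and monocyte genes 4 of 5, the brightest being KLRK1 and LYZ. NK probes rose 2 of 2 between sample types in each diet, and monocyte probes 4 of 12, 2 of 11 and 3 of 11, where 45.3%, 47.5% and 58.9% of all probes were called. From 10 to 27 weeks KLRK1 rose by 2.15 in control and 1.82 in HFCD. The other NK probe was lower in HFCD at an unadjusted p under 0.05, beside 20.5% of all probes. The median over these 2 probes was 0.19. In HFCSD 0 NK probes were called over time, and 0 monocyte probes in any diet, where 20.7%, 5.59% and 10.4% of all probes were called. Platelet genes (4 of 9 on the array, PF4 brightest) and neutrophil genes (4 of 11, MMP9 brightest) gave 0 calls by limma in every comparison. At an unadjusted p under 0.05, 4 of 4 platelet probes were lower under HFCD at 10 weeks, 0 at 19 weeks and 1 at 27 weeks, with medians of -0.85, -1.58 and -0.99. Of all probes 10.0%, 12.5% and 5.54% had such a p. Under HFCSD 0, 0 and 2 of 4 were lower, with medians of -0.13, -0.51 and -1.18, beside 1.73%, 11.9% and 32.3% of all probes. Summed platelet intensity at 10 weeks was 19390, 29580, 27970 and 31020 in controls and 15120, 14050, 16290 and 14790 under HFCD. At 27 weeks it was 26010, 26720, 33470 and 29460 in controls and 15840, 18400 and 13410 under HFCD, again without overlap, and 28500, 17650 and 4661 under HFCSD, where replicate 1 lay among the controls. At 19 weeks the groups overlapped, with 19150, 22650, 24850 and 20450 in controls, 2884, 19940, 24750 and 3130 under HFCD and 19650, 7615 and 23440 under HFCSD. The part of platelets in the subunit changes was not tested. Of 10 erythroid genes only HBA had a probe, which had a mean of 1.72 and was tested in no comparison, so red cell RNA was not followed.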

How the data were processed

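RNA of whole blood and white blood cells was measured on 45 arrays, grouped by the labelled sample type, feeding period and diet. The intensity values were deposited as the authors' Feature Extraction output, with background subtracted within the array and a noise estimate in place of dim signals, not normalized between arrays. Per the file headers the other values used are flags of 0 or 1 (well above background, saturated, outlier). The labels give version 9.5.3.1 of the software and the headers 10.5.1.1. A deposited series table holds the authors' quantile normalized intensity on a linear scale with column medians of 0.0998 to 0.101, and served as an alternative after log2.

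Each array has 45220 spots, of which 1417 control spots were dropped, leaving 43803 spots of 43603 probes. Log2 intensities were quantile normalized over all arrays, the 1 to 31 outlier spots of an array were dropped, and repeated spots of a probe averaged. There were 0 saturated spots. Of the 33 member probes 12 carry a RefSeq accession of the gene and 11 its name on the array, with overlap, and the others were named from the array's description. In all 2762 probes had a symbol.

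Tests in 22 comparisons (12 of diets) used limma 3.58.1 in R 4.3.3 with the data.table package, version 1.17.8, two-sided, with Benjamini-Hochberg adjustment at 0.05 over all probes present throughout at least 1 group, with at least 2 usable arrays per group. Tables and plots used Python 3.11.15, numpy 2.4.6, pandas 2.3.3 and matplotlib 3.10.9. The code was tested on simulated data.

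The replicate numbers were checked as pairs. Correlations of pairs, after removal of group means, passed 0.1 in all pairs only for HFCSD at 27 against 10 weeks (3 of 3 pairs, 0.187 to 0.498), where the paired fit called 1 subunit, as the unpaired fit did. The changes given are from unpaired fits.

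Members named with values were PSMB8, PSMB9, PSMB10, PSMB7, PSME1 and PSME2, in each comparison up to 6 called probes with the largest change, by role the largest and smallest change under HFCSD in whole blood at 27 weeks, and genes whose probes disagree. The 10 other lists cover ubiquitin, MHC class I loading, interferon, and cell types (B, T and NK cells, monocytes, neutrophils, erythroid cells, platelets), with up to 3 genes of each named by change. The B cell list and some genes of other lists are not reported here. The members and lists were chosen with earlier results of these data known.

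Alternatives were scaling to the 75th percentile, normexp with an offset of 50, the series table, no filter, presence on every array compared, the methods' t-test, the replicate block, the slide as a random block, the scan day as a block, the share of spots present as a covariate, 89 refits leaving out 1 array, and, chosen after the files were seen, the slide as a fixed block.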

Additional observations from a re-analysis of the deposited data

Results flagged for a closer look

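In the 23 named probes, 207 groups of 4 arrays were searched for 1 array far from its group by Dixon's ratio, and 12 groups had one. Chance alone marks about 1 in 20 groups, so about this number is what chance gives, and no cause was tested.

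In the immunoproteasome, PSMB8 read 10.663 in replicate 1 of the whole blood controls at 19 weeks, where the others lay from 9.814 to 9.957. PSMB9 read 12.582 in replicate 2 of the controls at 10 weeks (others 13.016 to 13.093). PSMB10 probe A_72_P088096 read 10.481 in replicate 4 of the HFCSD white blood cells (others 10.671 to 10.690). PSME1 read 11.785 in replicate 2 of HFCD whole blood at 10 weeks (others 12.302 to 12.317).

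Among the constitutive core and the cap, PSMB7 read 9.178 in replicate 3 of the control white blood cells (others 8.563 to 8.631) and 8.760 in replicate 1 of the HFCSD white blood cells (others 9.110 to 9.169). PSMB3 read 7.689 in replicate 1 of the controls at 19 weeks (others 8.452 to 8.530). This array and that of PSMB8 are the same, the only control of the period scanned with the diet arrays. PSMC2 read 10.272 in replicate 1 of HFCD at 19 weeks (others 9.417 to 9.525). PSMD4 probe A_72_P186381 read 10.379 in replicate 1 of the controls at 27 weeks (others 10.988 to 11.054), and the call of this probe under HFCSD ended without that array, as it did in 5 of 7 refits leaving out 1 array. PSMD12 read 6.367 in replicate 4 of the control white blood cells (others 7.267 to 7.356).

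PSMD10 read 6.296 with probe A_72_P044106 in replicate 2 of HFCD at 10 weeks (others 6.526 to 6.565) and 9.191 with A_72_P217957 in replicate 2 of the HFCSD white blood cells (others 8.082 to 8.204).

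The change of PSMD4 probe A_72_P088046 under HFCSD differed between white blood cells and whole blood by -1.765, which passed limma's adjustment. Cells, kit and scan day cannot be told apart in it.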

How the results depend on the processing

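No called change reversed its sign under any alternative. The deposited series table kept all 52 calls of the named probes, normexp 50 and scaling to the 75th percentile 46, while the share of spots present as a covariate kept 38 and the methods' t-test 26. The t-test was not run for differences between changes, and a slide as a fixed block only where groups share slides.

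The count of 3 for HFCSD against control at 27 weeks in whole blood became 0 with the t-test and with the covariate, 2 with the replicate block, where PSMD10 is lost, and 0 to 4 leaving out 1 array, and its median of 0.14 became 0.32 with the covariate, 0.003 with the slide as a fixed block, 0.081 as a random block and 0.080 to 0.30 leaving out 1 array. With the replicate block 49 calls were kept in all.

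At 19 weeks the median under HFCD became 0.24 with the slide as a fixed block, and under HFCSD 0.34 without the filter. In white blood cells the HFCSD median became 0.070 without it.

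Between sample types the control count of 10 became 4 with the t-test. The control median became 0.55 under scaling and 0.15 to 0.40 leaving out 1 array, and the HFCD median 0.71 under scaling. The HFCD count became 5 to 11 leaving out 1 array. The HFCSD count became 2 with the covariate and 7 to 14 leaving out 1 array, and its median 0.56 under scaling, 0.17 without the filter and 0.30 to 0.53 leaving out 1 array.

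From 10 to 27 weeks the control count of 12 became 4 with the t-test, and the median -0.26 with normexp, -0.24 without the filter and -0.60 to -0.38 leaving out 1 array. The HFCD count of 4 became 2 under scaling, 8 with normexp, 0 without the filter, 0 with the t-test, 0 with the slide as a random block and 0 to 5 leaving out 1 array, and its median -0.12 with normexp and -0.090 without the filter. The HFCSD count of 1 became 2 under scaling, 2 with normexp, 0 with the t-test and 0 to 2 leaving out 1 array, and its median -0.32 to -0.14 leaving out 1 array.

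For the difference of HFCSD changes between sample types the count of 1 became 0 under scaling, 2 with normexp, 0 with the covariate and 0 to 1 leaving out 1 array. The HFCD median there became 0.027 to 0.34 leaving out 1 array. The HFCSD median of 0.039 became -0.040 under scaling, -0.024 with the covariate and -0.046 to 0.15 leaving out 1 array, so its sign was not fixed. Between 27 and 10 weeks the HFCSD median became 0.36 under scaling.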
